A study of Mus musculus with 8 samples.

Results

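Ganglia that lacked G9a in sensory neurons were compared with wild-type ganglia in mice that had received vehicle and not an inflammatory agent. The comparison takes 4 of the 8 RNA sequencing libraries of the study, 2 of the knockout (iKO) and 2 of the wild type (WT), and reads them across all 20235 genes tested. The iKO mice carried Avil-iCreERT2/AJwo, an inducible Cre recombinase under the gene of advillin, a cytoskeletal protein of peripheral sensory neurons, together with G9aflox/flox, floxed alleles of Ehmt2, the gene that encodes G9a. The WT mice were littermates that had no Cre. Loss of G9a and presence of the recombinase therefore cannot be told apart. The Ehmt2 alleles of the WT mice were not described, so the genotypes may also differ in the floxed alleles themselves. Vehicle had been given in the left paw, and whole dorsal root ganglia were taken 14 days later. The 4 remaining libraries, 2 of iKO and 2 of WT, came from mice given complete Freund's adjuvant (CFA), an oil emulsion of killed mycobacteria that inflames the paw, and they are set beside the vehicle values as a second pair of genotypes that shares no library with the first. How Cre was induced, the dose, the age and sex of the mice, the side and spinal level of the ganglia and the number of animals behind a library were not stated, so p-values reflect only how far these libraries spread, which may be technical.

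Dorsal root ganglia hold the cell bodies of the neurons that sense touch, temperature, itch and pain, wrapped by satellite glia and accompanied by Schwann cells, fibroblasts, vessels and resident immune cells. G9a works with its partner GLP, the product of Ehmt1, and places methyl groups on lysine 9 of histone H3, a mark of silent genes in otherwise open chromatin. In rodent sensory neurons it is known for silencing potassium channel and opioid receptor genes after nerve injury. A whole ganglion mixes neurons with cells in which advillin is not active, so fewer cells of a type and less RNA per cell cannot be told apart in any of the values below.

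The libraries held 42971823 and 36161344 reads for iKO vehicle, 26312614 and 29763833 for WT vehicle and between 32176987 and 41617192 for the 4 CFA libraries. Levels are given as CPM, read counts scaled for library size and composition, for libraries 1 and 2 of a group in that order. Differences are log2 fold changes of iKO over WT ± standard error, with 2 libraries per group. The standard error is the size of the difference divided by the square root of its F statistic, from the fit of all 8 libraries. Both WT vehicle libraries were unlike the rest of the set. A list of 17 nuclear noncoding RNAs summed to 856.2 and 982.3 CPM in iKO vehicle, against 5283 and 5427 CPM in WT vehicle and 620.8 to 951.6 CPM in the CFA libraries. The 21 skeletal muscle genes followed summed to 114.7 and 136.7 CPM in iKO vehicle, against 743.6 and 93.83 CPM in WT vehicle and 84.58 to 171.7 CPM in the CFA libraries, so muscle RNA was highest in WT vehicle library 1. Replicate libraries differed by a median of 0.171 (log2) in iKO vehicle, 0.285 in WT vehicle, 0.205 in iKO CFA and 0.595 in WT CFA, the widest. The libraries carried the neuronal RNA that the labelled tissue should hold: Tubb3, a neuronal tubulin, had 3742 and 3771 CPM in iKO vehicle, against 1653 and 1956 CPM in WT vehicle.

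Ehmt2, the targeted gene, was at 34.0 and 31.6 CPM in iKO vehicle, against 74.4 and 65.4 CPM in WT vehicle. In the CFA pair it was at 45.0 and 44.2 CPM in iKO and at 74.2 and 61.3 CPM in WT. Every iKO library lay below every WT library, and the vehicle difference was -1.09 ± 0.18 (adjusted p = 0.00655). The call was lost without iKO vehicle library 1 (adjusted p = 0.0693) or 2 (0.0958) or WT vehicle library 1 (0.0662), with differences of -1.14, -1.03 and -1.01. The counts are summed over the whole gene, so reads from cells without active advillin and from exons outside the floxed part are included. Ehmt1 had 18.6 and 17.3 CPM in iKO vehicle, against 29.4 and 23 CPM in WT vehicle and did not pass (-0.55 ± 0.27, adjusted p = 0.186).

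Across all genes 3564 passed an adjusted p of 0.05 under vehicle (17.6% of those tested), 1676 higher in iKO (8.28%) and 1888 lower (9.33%), and 858 of the higher and 1598 of the lower calls exceeded 1 on the log2 scale. With library totals in place of composition scaling the split was 770 higher and 2752 lower, and the median of all genes moved to -0.227, against 0.015. The number of calls hung on single libraries: 97 higher and 297 lower were left without WT vehicle library 1, 198 and 467 without iKO vehicle library 1, and 146 and 316 without iKO vehicle library 2. It was 4610 and 3854 without WT CFA library 1 and 4617 and 3826 without WT CFA library 2. A stricter set is therefore marked throughout: a call held if its libraries did not overlap and it passed in the same direction in each of the 8 fits that leave out 1 library. In all, 94 higher calls (0.465% of genes tested) and 244 lower calls (1.21%) held.

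Some genes were silent or nearly so in WT ganglia and read in iKO ganglia. Of the 1676 higher calls 153 (9.13%) were under 1 CPM in both WT vehicle libraries and at 1 CPM or more in both iKO vehicle libraries, against 1.58% of all genes tested. The reverse was more frequent, with 438 of the 1888 lower calls (23.2%) under 1 CPM in both iKO vehicle libraries and at 1 CPM or more in both WT vehicle libraries, against 4.36% of all genes tested. In the CFA libraries 341 of these 438 were under 1 CPM in both WT libraries, so in them WT reached 1 CPM under vehicle only. Of the 153 higher calls 106 were under 1 CPM in both WT CFA libraries, and 89 of these were at 1 CPM or more in both iKO CFA libraries. The genes named next are known mainly from other tissues, among them skin, testis, inner ear, liver, heart and the serotonin and GABA neurons of the brain. Not all of them belong to the 153. Serpinb5, Tph2 and Gad1 were over 1 CPM in both WT vehicle libraries, and Dach2 was over it in WT vehicle library 1.

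Serpinb5, which encodes the epithelial serpin maspin, was at 212 and 184 CPM in iKO vehicle, against 1.57 and 1.43 CPM in WT vehicle. Tph2, the rate-limiting enzyme of serotonin synthesis in neurons, was at 88.6 and 82.0 CPM in iKO vehicle, against 1.24 and 1.31 CPM in WT vehicle. In both genes the genotypes were separated by a wide gap, with differences of 7.04 ± 0.32 (adjusted p = 6.39e-05) and 6.06 ± 0.21 (adjusted p = 1.15e-05). In the CFA libraries Serpinb5 was at 173 and 150.0 CPM in iKO and 1.34 and 2.36 CPM in WT, and Tph2 at 78.2 and 83.1 CPM in iKO and 1.52 and 1.68 CPM in WT. Gad1, the enzyme that makes the inhibitory transmitter GABA, was at 16.8 and 15 CPM in iKO vehicle, against 1.78 and 1.31 CPM in WT vehicle (3.37 ± 0.32, adjusted p = 8.49e-04).

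Genes with almost no read in WT showed the same contrast at lower levels. Cst12, a testis cystatin, was at 10.3 and 12.3 CPM in iKO vehicle and had 1 read over both WT vehicle libraries, a ratio of 712 with a 95% counting interval of 127 to 28148. Magea13, whose gene family is active in testis and in tumours, was at 6.67 and 8.55 CPM in iKO vehicle, against 0.0335 and 0.0298 CPM in WT vehicle, a ratio of 239 (65.8 to 1978). Nt5el, a gene resembling a nucleotidase, and Crct1, of the cornified layer of skin, had ratios of 333 (59.4 to 13179.5) and 311 (55.5 to 12319). These intervals cover counting error only, and the 4 genes passed with an adjusted p between 2.26e-04 and 0.00282.

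Epithelial and sensory-organ genes followed. Il1f9, an epithelial interleukin of the IL-1 family, was at 8.46 and 8.75 CPM in iKO vehicle, against 0.101 and 0.179 CPM in WT vehicle (5.89 ± 0.59, adjusted p = 9.79e-04). Otol1, a component of the ear stones of the inner ear, was at 9.49 and 8.73 CPM in iKO vehicle, against 0.369 and 0.0894 CPM in WT vehicle (5.32 ± 0.68, adjusted p = 0.00276). Tmc2, a subunit of the hair cell transduction channel, was at 4.0 and 5.57 CPM in iKO vehicle, against 0.168 and 0.179 CPM in WT vehicle (4.76 ± 0.52, adjusted p = 0.00137). All iKO libraries stood above all WT libraries for these genes, CFA included. Lgals7, an epidermal galectin, Rnf39, a ring finger gene, and Usp17le, a deubiquitinase of a multigene family whose copies can share reads, were higher by 4.77 ± 0.57, 4.64 ± 0.31 and 6.22 ± 0.88 (adjusted p of 0.00201, 2.26e-04 and 0.004). S100a5, a calcium-binding protein of olfactory neurons, and Myl7, the atrial myosin light chain, rose by 5.19 ± 0.75 and 5.16 ± 0.80 (adjusted p = 0.0042 and 0.00546). Both calls were lost without WT vehicle library 1 (adjusted p = 0.0634 and 0.0686). The following pair of genes was chosen after their values were seen. Afp, the fetal liver protein alpha-fetoprotein, was at 10.5 and 10.8 CPM in iKO vehicle, against 0.469 and 0.417 CPM in WT vehicle. Dach2, a developmental transcription cofactor, was at 13.9 and 20.1 CPM in iKO vehicle, against 1.11 and 0.685 CPM in WT vehicle.

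**Figure D1:**
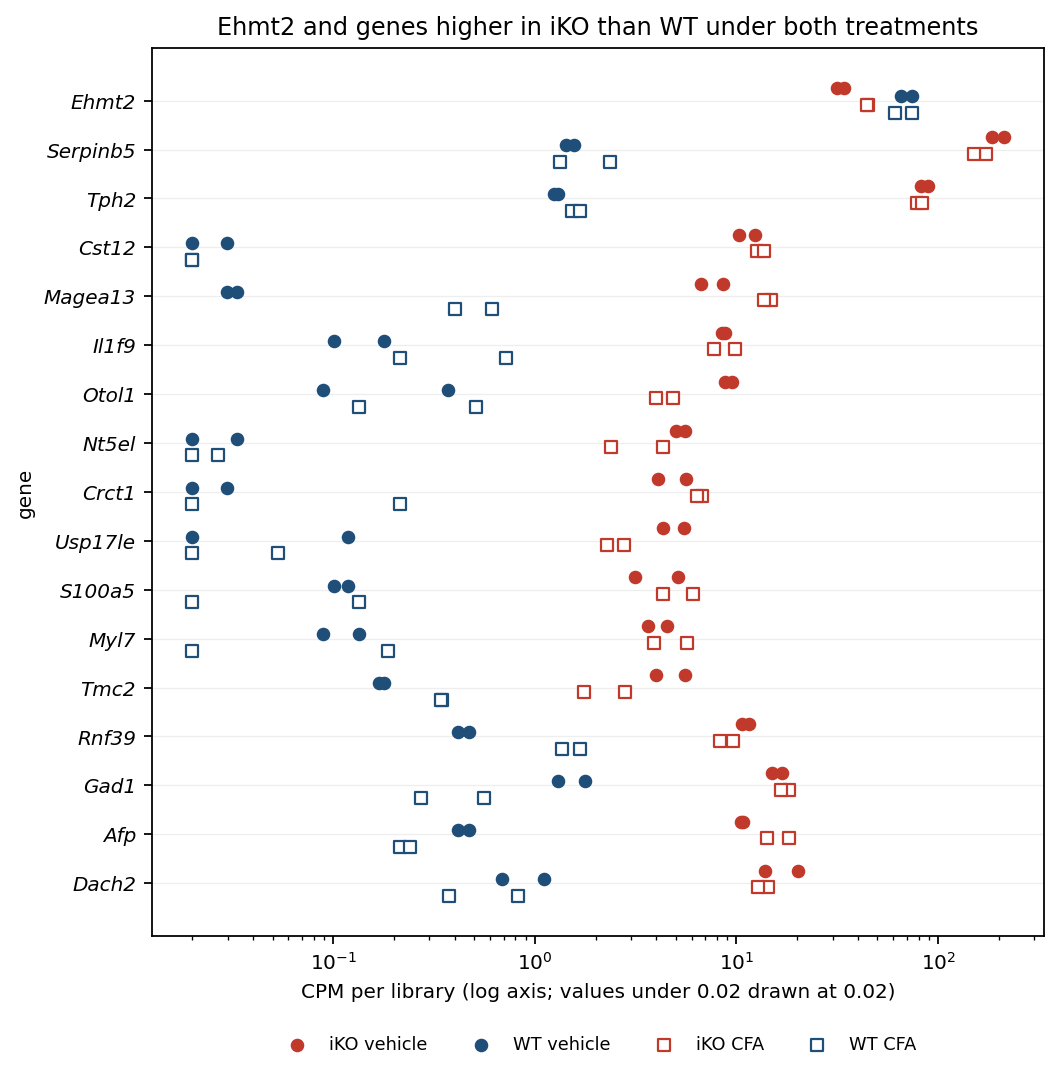
Level of Ehmt2 and of 16 genes higher in iKO, in CPM on a log axis, 1 symbol per library, with iKO in red and WT in blue, filled for vehicle and open for CFA. Ehmt2 is lower in iKO in all libraries, while genes such as Serpinb5 sit between 150.0 and 212 CPM in the 4 iKO libraries and between 1.34 and 2.36 CPM in the 4 WT libraries.

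Promoters of the genes higher in both pairs were described by their CpG dinucleotides, the sites of DNA methylation. Of the 137 genes higher under both treatments, 101 matched by symbol to a RefSeq table of windows from 250 bases before to 50 after a transcription start, on mouse assembly GRCm38.p6. Their 123 windows had a median of 5 CpG (quartiles 2 and 10), against 7 (3 and 20) over all 32851 windows. The windows of Serpinb5 (chr1:106860925-106861224, + strand), Tph2 (chr10:115184973-115185272, - strand) and Cst12 (chr2:148789115-148789414, + strand) held 7, 9 and 3 CpG and are shown because these genes were nearly silent in WT and among the largest rises, with each CpG in capitals.
Serpinb5: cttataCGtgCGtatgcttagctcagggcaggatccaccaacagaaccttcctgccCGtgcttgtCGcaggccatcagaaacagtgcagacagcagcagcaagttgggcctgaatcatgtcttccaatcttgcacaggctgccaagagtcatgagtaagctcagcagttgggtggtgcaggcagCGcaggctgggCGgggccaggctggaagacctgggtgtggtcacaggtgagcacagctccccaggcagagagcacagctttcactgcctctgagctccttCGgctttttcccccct
Tph2: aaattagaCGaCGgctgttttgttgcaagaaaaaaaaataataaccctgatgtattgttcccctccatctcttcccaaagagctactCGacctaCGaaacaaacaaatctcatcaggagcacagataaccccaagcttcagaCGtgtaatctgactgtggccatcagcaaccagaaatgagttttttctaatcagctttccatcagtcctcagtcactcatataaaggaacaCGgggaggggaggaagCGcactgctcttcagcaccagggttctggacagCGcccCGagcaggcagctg
Cst12: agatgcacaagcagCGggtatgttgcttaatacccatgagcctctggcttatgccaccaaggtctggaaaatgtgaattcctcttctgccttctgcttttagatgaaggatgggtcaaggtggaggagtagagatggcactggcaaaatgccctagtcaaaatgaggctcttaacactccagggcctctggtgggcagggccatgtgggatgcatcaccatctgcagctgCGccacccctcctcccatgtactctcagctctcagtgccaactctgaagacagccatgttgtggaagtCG
The window of Gad1 held 21 CpG, so a low number was not shared by all members.

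Under CFA 345 genes passed (1.7%), 303 higher in iKO (1.5%) and 42 lower (0.208%). All 4 iKO libraries lay above all 4 WT libraries in 884 genes (4.37%) and below them in 400 (1.98%). This included 377 of the higher and 129 of the lower vehicle calls. Of the genes higher under vehicle 137 were also higher under CFA, 8.17% of the vehicle calls and 45.2% of the CFA calls. Leaving out 1 library gave between 46 (without iKO CFA library 2) and 539 (without WT CFA library 2) genes higher in both pairs. Genes at moderate levels in WT that were higher in both pairs included several metabolic and cytoskeletal genes, chosen after their values were seen except Glo1. Glo1, which detoxifies methylglyoxal, was at 438 and 431 CPM in iKO vehicle, against 141 and 147 CPM in WT vehicle (1.59 ± 0.17, adjusted p = 0.00126). Its pseudogene Glo1-ps was at 38.3 and 36.5 CPM in iKO vehicle, against 10.6 and 16.4 CPM in WT vehicle (1.47 ± 0.25, adjusted p = 0.00741), and since reads of parent and copy can be assigned to either, both values are uncertain. Smyd3, a lysine methyltransferase, rose by 1.67 ± 0.18 (adjusted p = 0.0014), Gstm2, a glutathione transferase, by 2.68 ± 0.29 (0.00137), and Diaph3, an actin nucleator, by 2.26 ± 0.22 (9.45e-04). Kcnmb1, an auxiliary subunit of the BK potassium channel, was at 132 and 129 CPM in iKO vehicle, against 25.1 and 24.7 CPM in WT vehicle (2.39 ± 0.17, adjusted p = 2.48e-04). In the CFA pair it was at 106 and 96.8 CPM in iKO, against 48.3 and 45.8 CPM in WT. Capza1, an actin capping subunit, was at 98.1 and 96.4 CPM in iKO vehicle, against 51.5 and 48.1 CPM in WT vehicle (0.97 ± 0.16, adjusted p = 0.00787). Its call and that of Glo1-ps were lost without iKO vehicle library 1 or 2 or WT vehicle library 1 (adjusted p between 0.058 and 0.0826).

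In both pairs 11 genes were lower in iKO, 0.583% of the lower vehicle calls and 26.2% of the lower CFA calls. Leaving out 1 library gave between 3 and 309 such genes, with 309 without WT CFA library 2 and 62 without WT CFA library 1, and DESeq2 gave 51. Pisd-ps3, a pseudogene of phosphatidylserine decarboxylase whose reads may come from its parent, was at 9.12 and 9.53 CPM in iKO vehicle, against 65.1 and 76.0 CPM in WT vehicle (-2.92 ± 0.23, adjusted p = 3.7e-04). H2af-ps2, a histone pseudogene chosen after its values were seen, had 1 read over both iKO vehicle libraries and 3.08 and 3.72 CPM in WT vehicle. These were the pair of calls that held among the 8 named genes lower in both. Wdfy1, an endosomal adaptor, was at 12 and 14.0 CPM in iKO vehicle, against 36.2 and 31.1 CPM in WT vehicle (-1.37 ± 0.24, adjusted p = 0.00865). In the CFA pair it was at 9.76 and 7.07 CPM in iKO, against 68.9 and 49.4 CPM in WT. Zfp40, a zinc finger gene, Kcnv1, a silent potassium channel subunit, and Calb1, the calcium buffer calbindin, had differences of -1.18 ± 0.20 (adjusted p = 0.00826), -1.09 ± 0.27 (0.0295) and -0.92 ± 0.23 (0.0288). Pde4c, a cyclic AMP phosphodiesterase, and Decr2, a peroxisomal reductase, were at -1.55 ± 0.21 (adjusted p = 0.00325) and -0.76 ± 0.17 (0.02). The calls of Wdfy1, Zfp40, Kcnv1, Calb1 and Decr2 were each lost without either iKO vehicle library, and some also without a WT vehicle library or iKO CFA library 1 (adjusted p between 0.0521 and 0.204), and that of Pde4c without iKO vehicle library 2 (0.0529). The opposite pattern, lower in iKO under vehicle and higher in iKO under CFA, took 53 genes, 2.81% of the lower vehicle calls and 17.5% of the higher CFA calls.

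**Figure D2:**
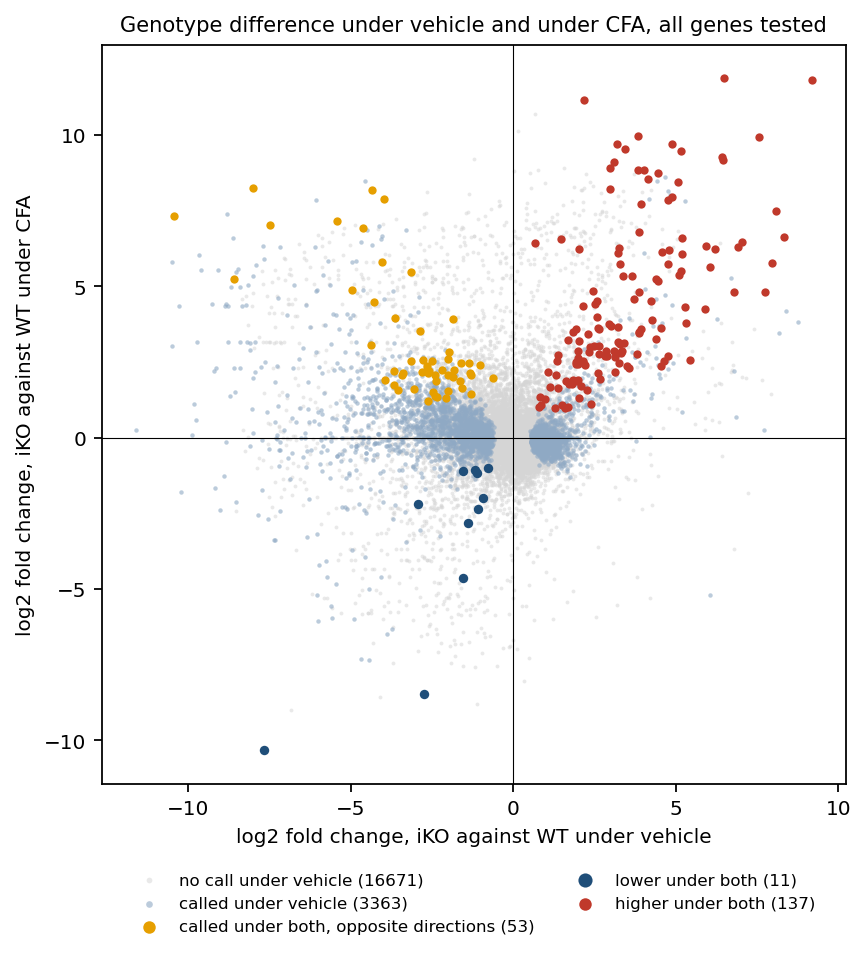
Log2 fold change of iKO over WT under vehicle (horizontal) and under CFA (vertical), 1 point per gene tested, both axes linear. The 137 genes higher in both pairs are red, the 11 lower in both are dark blue, the 53 called in opposite directions are orange and the remaining vehicle calls are pale blue.

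By chromosome, of 146 genes alike in both pairs with a chromosome in the RefSeq table, 11.6% lay on chromosome 13, 11% on chromosome 3 and 9.59% on chromosome 17, which carries Ehmt2 and Glo1, against 3.94%, 5.01% and 4.97% of the genes tested. These were the highest shares of any chromosome, and others lay under their share of the genes tested, such as chromosome 10 (2.05%, against 4.59%). Whether sequence that differs between the strains of origin was carried along with the alleles was not stated. Around the targeted gene, 5 of 15 neighbours of Ehmt2 were lower (33.3%), against 9.33% of all genes tested. The complement gene Cfb was the 1 call among them that held. Cfb went the other way in the CFA pair, higher in iKO by 1.21 (adjusted p = 0.0211). Its WT level was 33.7 and 34.7 CPM under vehicle and 5.21 and 4.59 CPM under CFA. The median vehicle difference of the 15 neighbours was -0.0073, and an effect of the allele on them was not tested. Around advillin 2 of 11 neighbours were higher (18.2%, against 8.28% of all genes), Marchf9 (1.54 ± 0.22, adjusted p = 0.00388) and Tspan31 (0.60 ± 0.18, adjusted p = 0.0496). Ctdsp2 was lower (-0.71 ± 0.20, adjusted p = 0.0429). Marchf9 lost its call when WT vehicle library 1 was left out (adjusted p = 0.0543), and those of Tspan31 and Ctdsp2 without any of 6 and 5 single libraries (adjusted p up to 0.321 and 0.316). Avil itself was at 471 and 429.5 CPM in iKO vehicle, against 509 and 662 CPM in WT vehicle and did not pass (-0.38 ± 0.36, adjusted p = 0.494).

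Among other genes of the H3K9 machinery 5 of 30 were lower (16.7%), Ehmt2 included, against 9.33% of all genes tested. The call that held was Jmjd1c, a demethylase of the same lysine, at 27.2 and 32.5 CPM in iKO vehicle, against 92.2 and 90.4 CPM in WT vehicle (-1.61 ± 0.18, adjusted p = 0.00136). Among the H3K4 and H3K27 machinery 6 of 22 genes were lower (27.3%). Kdm6b, an H3K27 demethylase, was at 17.1 and 15.6 CPM in iKO vehicle, against 46.3 and 44.6 CPM in WT vehicle (-1.47 ± 0.17, adjusted p = 0.00195). Jmjd1c lay between 23 and 27.6 CPM and Kdm6b between 12.7 and 18.4 CPM in the 4 CFA libraries. Without iKO vehicle library 1 each list had 1 lower call.

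Genes that neurons use to sense and signal lay higher in iKO under vehicle. Of 30 neurofilament and pan-neuronal genes 26 had a positive difference, with a median of 0.74, against 0.0147 over all genes tested, and 7 (23.3%) passed as higher, against 8.28% of all genes. Of 33 transduction channels 10 (30.3%) were higher and 3 lower (median 0.59), and of 16 sodium channels 3 (18.8%) were higher and 1 lower (0.66). Of 63 potassium channels 8 were higher and 1 lower (median 0.50), and their 12.7%, like the 9.09% of calcium channels, was near the share of all genes. These medians kept their sign under the other scalings and in DESeq2, while that of 22 calcium channels (2 higher, median 0.21) turned to -0.035 with library totals. The counts rested on single libraries: leaving out iKO vehicle library 1 left 1 higher sodium channel and 1 higher potassium channel, and leaving out WT vehicle library 1 left 1 higher transduction channel. No pan-neuronal gene was called higher by edgeR without iKO vehicle library 2 or without WT vehicle library 1, with 10 and 7 at an unadjusted p under 0.05, and DESeq2 on all libraries called 15. In the CFA pair the same lists had medians of -0.50, -0.28, -0.56, -0.57 and -0.69. The pan-neuronal genes summed to 23560 and 23270 CPM in iKO CFA and 32350 and 25360 CPM in WT CFA. Under vehicle they summed to 32260 and 32450 CPM in iKO vehicle, against 16240 and 20860 CPM in WT vehicle.

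The channels that detect heat and irritants were followed whatever their result. Trpv1, the capsaicin and heat channel, was at 130.4 and 139.6 CPM in iKO vehicle, against 66.7 and 98.0 CPM in WT vehicle (0.71 ± 0.21, adjusted p = 0.0495). Its call was lost with RLE scaling (adjusted p = 0.0543), library totals (0.151), no filter on low counts (0.053), a filter at 1 CPM (0.0557) and the replicate block (0.0705). Trpa1, the irritant channel, was at 87.9 and 74.5 CPM in iKO vehicle, against 40.7 and 58.1 CPM in WT vehicle and did not pass (0.72 ± 0.26, adjusted p = 0.0927). The libraries of both genes were separated by genotype under vehicle. Under CFA the WT libraries were the higher ones, with Trpv1 at 142 and 139 CPM in iKO and 199 and 182 CPM in WT. The following genes of nociceptors were chosen after their values were seen. Trpm8, the cold and menthol channel, P2rx3, the ATP receptor of nociceptors, and Asic3, an acid-sensing channel, were higher by 1.27 ± 0.34, 0.83 ± 0.22 and 1.5 ± 0.26 (adjusted p = 0.0356, 0.0347 and 0.00829). Asic3 was at 103 and 109.6 CPM in iKO vehicle, against 34.9 and 39.9 CPM in WT vehicle. Calca, the gene of the pain peptide CGRP, and the nociceptor sodium channels Scn9a, Scn10a and Scn11a differed by 0.77 ± 0.36, 0.44 ± 0.26, 0.75 ± 0.40 and 0.61 ± 0.42 and did not pass (adjusted p between 0.161 and 0.337). The calls of Trpv1, Trpm8, P2rx3 and Tubb3 were lost without either iKO vehicle library, WT vehicle library 1 or either iKO CFA library (adjusted p up to 0.328), and that of Asic3 without iKO vehicle library 2 or WT vehicle library 1 (adjusted p = 0.0683 and 0.0985).

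In each ion channel family 1 call at most held. Scn2b, an auxiliary subunit of sodium channels, was at 188 and 175 CPM in iKO vehicle, against 40.7 and 50.8 CPM in WT vehicle (1.99 ± 0.24, adjusted p = 0.00235). It was at 145 and 143 CPM in iKO CFA, against 82.5 and 52.3 CPM in WT CFA. Kcns1, a modulatory potassium channel subunit of large sensory neurons, was at 113 and 110.1 CPM in iKO vehicle, against 25.4 and 44.4 CPM in WT vehicle (1.67 ± 0.27, adjusted p = 0.00626). Unlike Scn2b, Kcns1 overlapped between genotypes under CFA, at 57.5 and 59.0 CPM in iKO and 65.4 and 50.2 CPM in WT. Cacng5, an auxiliary subunit of calcium channels and AMPA receptors, rose by 1.72 ± 0.30 (adjusted p = 0.00825), and the call was lost without iKO vehicle library 2 or WT vehicle library 1 (adjusted p = 0.0648 and 0.0975).

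Receptors and peptides gave a mixed picture. Of 37 glutamate and GABA receptor genes 5 were higher (13.5%) and 3 lower (8.11%), against 8.28% and 9.33% of all genes tested. The higher shares of the neurotrophin, opioid and Mrgpr lists below were 28.6%, 13.3% and 16.7%. Their lower shares were 9.52%, 0% and 8.33%, near or under that of all genes. Grin1, the obligatory NMDA receptor subunit, was at 102 and 100.4 CPM in iKO vehicle, against 22.8 and 38.1 CPM in WT vehicle (1.73 ± 0.35, adjusted p = 0.0148). Gria1, an AMPA receptor subunit, was at 7.38 and 5.88 CPM in iKO vehicle, against 21.2 and 28.3 CPM in WT vehicle (-1.90 ± 0.39, adjusted p = 0.0145). Of 21 neurotrophins and receptors 6 were higher and 2 lower, with Ngfr, a low-affinity neurotrophin receptor, at 1174 and 1121 CPM in iKO vehicle, against 357 and 501 CPM in WT vehicle (1.42 ± 0.28, adjusted p = 0.013). Of 15 genes of the opioid and cannabinoid system 2 were higher, the nociceptin receptor gene Oprl1 (1.67 ± 0.28, adjusted p = 0.00777) and Mgll (0.58 ± 0.17, 0.0483), the lipase that degrades an endocannabinoid. Of 12 Mrgpr receptors, a family of near-identical copies whose reads may be shared, Mrgprx1 and Mrgpre were higher (1.17 ± 0.21 and 0.85 ± 0.22, adjusted p = 0.0102 and 0.0344) and Mrgprb5 lower (-1.35 ± 0.29, adjusted p = 0.0179). The calls named in this paragraph were each lost without iKO vehicle library 2 and without WT vehicle library 1 (adjusted p up to 0.326).

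Of 25 neuropeptide genes 5 were higher (20%) and 3 lower (12%), against 8.28% and 9.33% of all genes tested. In each direction 1 call held. Pcsk1n, the precursor of a prohormone convertase inhibitor, was at 663 and 642 CPM in iKO vehicle, against 184 and 241 CPM in WT vehicle (1.62 ± 0.21, adjusted p = 0.00291). Gal, the injury-induced peptide galanin, was at 9.34 and 8.84 CPM in iKO vehicle, against 97.6 and 57.2 CPM in WT vehicle (-3.09 ± 0.29, adjusted p = 8.16e-04). For Gal the WT vehicle libraries were the high ones of all 8, with 10.2 to 24.7 CPM in the CFA libraries. Among sensory lineage transcription factors, 5 of 28 were higher (17.9%) and 2 lower (7.14%). Tlx2, a homeobox gene, rose by 1.46 ± 0.18 (adjusted p = 0.00249). Scg5, a chaperone of a prohormone convertase, was the pan-neuronal gene that fell, to 70.8 and 66.4 CPM in iKO vehicle, against 185 and 204 CPM in WT vehicle (-1.5 ± 0.18, adjusted p = 0.00197).

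**Figure D3:**
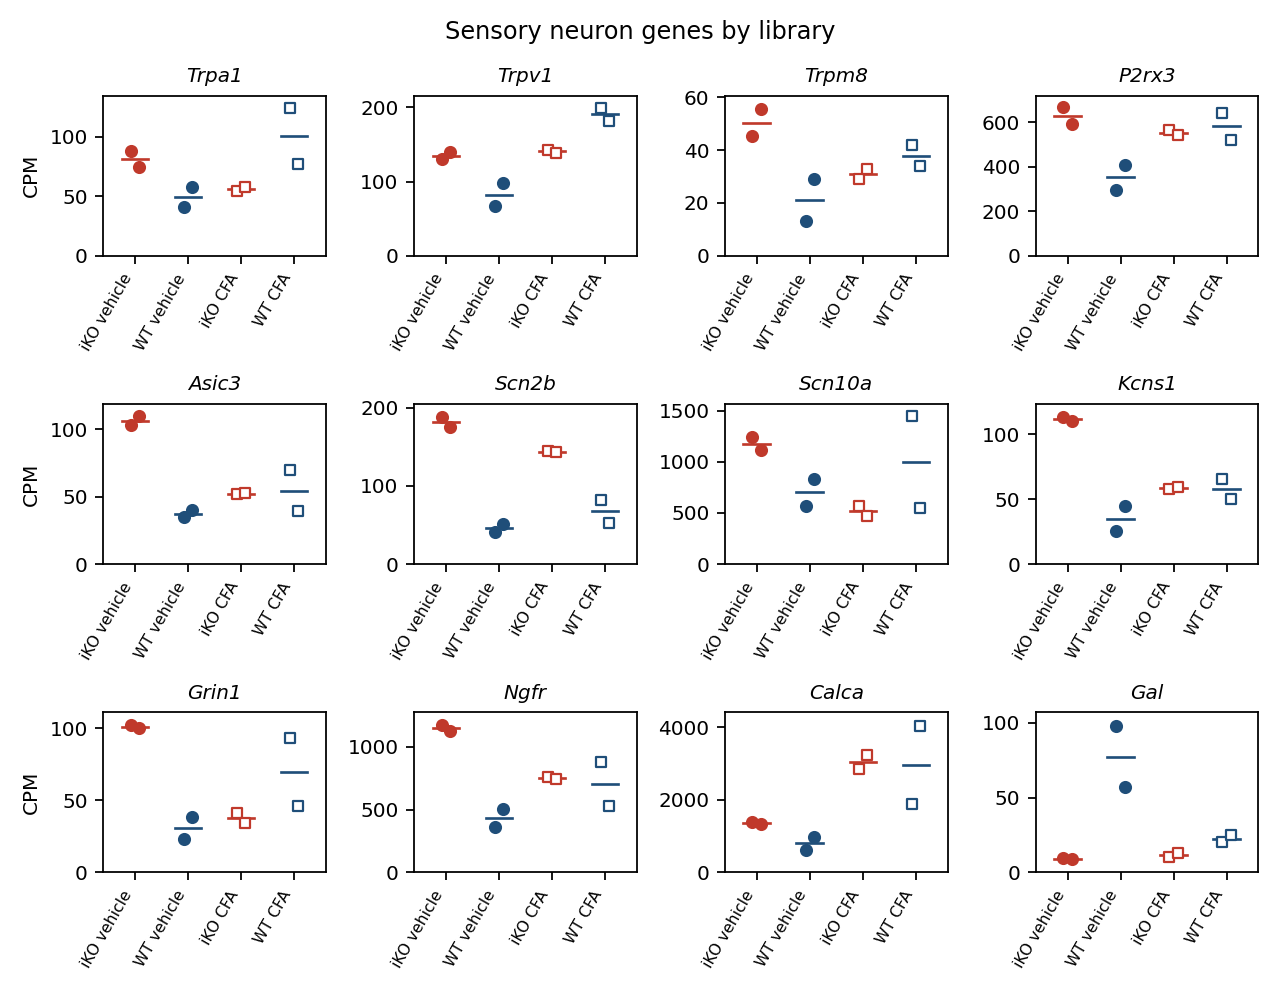
Level of 12 sensory neuron genes in CPM on linear axes from 0, 1 symbol per library with a line at the mean of each pair of libraries. In iKO vehicle Kcns1 and Scn2b lie at 110.1 CPM or more, above both WT vehicle libraries, while Gal is highest in WT vehicle.

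The most abundant of the higher calls that held included genes of metabolism and secretion. Eno1, a glycolytic enolase with processed copies elsewhere in the genome, was at 808 and 759.9 CPM in iKO vehicle, against 199 and 236 CPM in WT vehicle (1.85 ± 0.25, adjusted p = 0.00334). Aldoc, a brain aldolase that marks satellite glia, was at 246 and 257 CPM in iKO vehicle, against 79.6 and 107 CPM in WT vehicle (1.43 ± 0.19, adjusted p = 0.0035). Aplp1, a neuronal relative of the amyloid precursor protein, and Emc10, a subunit of a membrane insertion complex of the endoplasmic reticulum, rose by 1.61 ± 0.22 (adjusted p = 0.00338) and 1.36 ± 0.18 (0.00282). Among the lower calls that held the most abundant were an antibody chain and nuclear noncoding RNAs, described further on, and Ahnak. Ahnak, a giant scaffold protein of the cell periphery, was at 314 and 309 CPM in iKO vehicle, against 1764 and 1008 CPM in WT vehicle (-2.15 ± 0.29, adjusted p = 0.00325). Ahnak was at 404 to 538 CPM in the CFA libraries and Eno1 at 473 to 811 CPM, so for both genes WT vehicle was the group that stood apart.

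Cholesterol synthesis was the list with the most members higher. Of 28 enzymes and regulators 18 were higher (8.28% of all genes were), 27 had a positive difference and the median was 0.72. Dhcr7, the last enzyme of the pathway, was at 180.3 and 168 CPM in iKO vehicle, against 64.1 and 72.9 CPM in WT vehicle (1.35 ± 0.19, adjusted p = 0.00389). Sqle, squalene epoxidase, was at 344 and 345 CPM in iKO vehicle, against 149 and 168 CPM in WT vehicle (1.12 ± 0.20, adjusted p = 0.00861). Without WT vehicle library 1 the edgeR count was 0, with 16 members higher at an unadjusted p under 0.05, and DESeq2 on all libraries called 19. In the CFA pair Dhcr7 was at 127 and 116 CPM in iKO and 173 and 138 CPM in WT. Of 61 nuclear genes of the respiratory chain 6 were higher (9.84%, median 0.27), and of 79 cytosolic ribosomal protein genes 7 were lower (8.86%, median -0.48). Both shares were near those of all genes, 8.28% higher and 9.33% lower. The edgeR count of both lists was 0 without iKO vehicle library 1, with 6 and 9 members at an unadjusted p under 0.05. DESeq2 on all libraries called 8 and 21.

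Nuclear noncoding RNAs were the list with the largest share of lower calls, 13 of 16 tested (81.2%), against 9.33% of all genes tested. Of these calls 8 held, and the median was -3.12 under vehicle and -0.27 under CFA. Malat1, which sits in nuclear speckles, was at 31.9 and 57.0 CPM in iKO vehicle, against 1323 and 1187 CPM in WT vehicle (-4.82 ± 0.32, adjusted p = 2.26e-04). Neat1, the scaffold of paraspeckles, was at 4.31 and 6.97 CPM in iKO vehicle, against 785 and 459 CPM in WT vehicle (-6.79 ± 0.52, adjusted p = 3.32e-04). In the CFA libraries of both genotypes these RNAs were as low as in iKO vehicle, Malat1 at 27.4 to 39.3 CPM and Neat1 at 6.25 to 16.6 CPM. Meg3, an imprinted noncoding RNA, Snhg11, a snoRNA host gene, and Miat, a neuronal noncoding RNA, fell, with differences of -6.34 ± 0.55 (adjusted p = 6.25e-04), -4.73 ± 0.26 (2.02e-04) and -5.43 ± 0.38 (2.47e-04). Rtl1, an imprinted gene of retrotransposon origin in the same domain as Meg3, fell by 5.93 (± 0.44, adjusted p = 3.15e-04).

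Splicing genes moved with them. Of 33 splicing factors 19 were lower (57.6%), against 9.33% of all genes tested, and 5 of these calls held. Every tested member had a negative difference, and the median was -0.83 under vehicle and -0.27 under CFA. Clk1, a kinase of splicing factors whose own transcript is often kept in the nucleus, was at 10.4 and 10.8 CPM in iKO vehicle, against 98.3 and 70.6 CPM in WT vehicle (-3.0 ± 0.25, adjusted p = 5.59e-04). Pnisr, a splicing-associated protein, was at 13.6 and 11.5 CPM in iKO vehicle, against 115 and 97.6 CPM in WT vehicle (-3.08 ± 0.33, adjusted p = 0.00126). Clk4, Nktr and Luc7l3 fell, with differences of -2.39 ± 0.24, -2.38 ± 0.24 and -1.66 ± 0.18 and adjusted p between 9.77e-04 and 0.00129. Clk1 was at 11.2 to 15.2 CPM and Pnisr at 7.70 to 16.2 CPM in the CFA libraries. The share of nuclear RNA in these libraries was measured only through such genes, and its part in the differences was not tested. The high values belong to both WT vehicle libraries and to no others, and the WT CFA libraries were low as well. For these genes a genotype difference under vehicle and a trait of the WT vehicle libraries therefore cannot be told apart.

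Immediate early genes, which switch on within minutes of activity or stress, were lower in iKO vehicle. Of 46 tested 35 were lower, against 9.33% of all genes, 16 of these held, and 5 had a positive difference. Fos, a subunit of the AP-1 transcription factor, was at 4.09 and 5.63 CPM in iKO vehicle, against 99.1 and 91.9 CPM in WT vehicle (-4.30 ± 0.28, adjusted p = 2.26e-04). Ccn1, a secreted matricellular protein, was at 4.36 and 4.54 CPM in iKO vehicle, against 81.4 and 109 CPM in WT vehicle (-4.42 ± 0.25, adjusted p = 2.12e-04). Zfp36, which destabilises cytokine mRNAs, Fosl2, another AP-1 subunit, and Socs3, an inhibitor of cytokine signalling, fell, with differences of -4.21 ± 0.28 (adjusted p = 2.26e-04), -2.55 ± 0.19 (3.19e-04) and -2.98 ± 0.19 (2.26e-04). The list summed to 920.2 and 927.6 CPM in iKO vehicle, against 2524 and 2158 CPM in WT vehicle, and to 978.6 to 1043 CPM in the 4 CFA libraries, where its median difference was 0.11. The WT vehicle libraries were the high pair and the 6 others lay close together. Without iKO vehicle library 2 the count of lower members was 16.

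Nerve injury genes were also highest in the WT vehicle libraries, with WT CFA next. They summed to 1115 and 1117 CPM in iKO vehicle, against 1857 and 1588 CPM in WT vehicle, and to 1017 and 1063 CPM in iKO CFA, against 1448 and 1227 CPM in WT CFA. Of 29 tested 17 were lower (58.6%), against 9.33% of all genes, and 4 of these held. Atf3, the transcription factor that marks injured sensory neurons, was at 15.2 and 17.6 CPM in iKO vehicle, against 117 and 86.8 CPM in WT vehicle (-2.63 ± 0.25, adjusted p = 8.49e-04). It was at 18.8 and 16.7 CPM in iKO CFA and 22.5 and 32.8 CPM in WT CFA. Sprr1a, a protein of regrowing axons, was at 1.76 and 0.287 CPM in iKO vehicle, against 53.3 and 27.9 CPM in WT vehicle (-5.27 ± 0.68, adjusted p = 0.00276). Of 15 glucocorticoid response genes 9 were lower, 3 of which held, with the metal-binding protein Mt2 at 21.6 and 19.3 CPM in iKO vehicle, against 210.0 and 189 CPM in WT vehicle. Mt1, its relative, was at 34.5 and 36.3 CPM in iKO vehicle, against 199 and 226 CPM in WT vehicle. Of 19 circadian clock genes 4 were lower, 3 of which held, namely Per3 (-3.35 ± 0.37, adjusted p = 0.0014), Bhlhe40 (-1.64 ± 0.18, 0.00141) and Per1 (-1.51 ± 0.19, 0.00268). The hour of collection was not stated. Without iKO vehicle library 1 the lower members were 3 of the glucocorticoid list and 3 of the clock list. Of 46 heat shock and chaperone genes 3 were higher (6.52%) and 4 lower (8.7%), near the 8.28% and 9.33% of all genes. Creld2, induced by stress of the endoplasmic reticulum, was the 1 call that held (-2.22 ± 0.28, adjusted p = 0.00248).

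The promoters of the lower immediate early genes were searched for the cAMP response element half-site, the letters TGACG on either strand, which the factor CREB recognises. Of 39 windows of 28 genes that matched by symbol 69.2% held it, against 20.8% of all 32851 windows, and their median number of CpG was 23. CpG-rich windows hold CG-containing words more often, and the shares were not corrected for this. List members that were not lower were not counted apart, so the share may belong to the list and cannot be tied to the lower calls. The windows of Fos (chr12:85473640-85473939, + strand), Ccn1 (chr3:145649936-145650235, - strand) and Atf3 (chr1:191183284-191183583, - strand) are shown because these were the calls with the smallest p that held and whose window has the half-site, which is in capitals.
Fos: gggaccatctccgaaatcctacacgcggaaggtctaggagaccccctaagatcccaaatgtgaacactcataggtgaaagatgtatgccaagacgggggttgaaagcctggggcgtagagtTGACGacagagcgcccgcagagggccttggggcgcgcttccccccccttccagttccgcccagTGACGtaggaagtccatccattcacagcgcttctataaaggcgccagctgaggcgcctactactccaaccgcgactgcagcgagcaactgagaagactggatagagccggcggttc
Ccn1: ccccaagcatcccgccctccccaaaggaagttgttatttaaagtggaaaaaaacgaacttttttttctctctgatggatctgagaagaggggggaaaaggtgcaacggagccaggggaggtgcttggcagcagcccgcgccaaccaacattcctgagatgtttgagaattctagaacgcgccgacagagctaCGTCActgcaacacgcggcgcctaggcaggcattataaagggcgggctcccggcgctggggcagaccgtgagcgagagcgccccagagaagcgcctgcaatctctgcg
Atf3: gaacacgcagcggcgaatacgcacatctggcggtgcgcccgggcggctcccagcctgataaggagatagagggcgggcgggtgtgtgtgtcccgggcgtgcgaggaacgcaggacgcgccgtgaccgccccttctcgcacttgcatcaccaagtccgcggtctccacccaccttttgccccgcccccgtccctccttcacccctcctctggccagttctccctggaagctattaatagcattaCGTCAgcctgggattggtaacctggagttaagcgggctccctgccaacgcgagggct
The window of Fos held 2 matches, at 129 and 66 bases before the start, and those of Ccn1 and Atf3 held 1 each, at 58 and 7 bases before it. Such a match describes letters only and is no measure of binding.

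Of the 12 largest falls that held at a log2 mean CPM of at least 1 over the vehicle libraries, 10 were of immune genes. Jchain, the joining chain of secreted antibodies, was at 4.73 and 2.30 CPM in iKO vehicle, against 1944 and 780.1 CPM in WT vehicle (-8.59 ± 0.66, adjusted p = 3.32e-04). Cxcl13, an attractant of B cells, had 2 reads over both iKO vehicle libraries, against 39.3 and 34.9 CPM in WT vehicle, 1398-fold lower (95% counting interval 387 to 11549.6). Ubd, an interferon-induced ubiquitin-like modifier, Icos, a T cell costimulator, and Cd69, an early activation marker of lymphocytes, had 0 reads in iKO vehicle and were at least 284-fold, 133-fold and 125-fold lower, taking a floor of 3 reads over the group. Osm, a macrophage and T cell cytokine, was 172-fold lower (47.1 to 1425). In the WT CFA libraries these 6 genes lay at 0.961 CPM or less, and Jchain was at 23.4 and 31.5 CPM in iKO CFA and 0.961 and 0.445 CPM in WT CFA. Lax1, a lymphocyte adaptor, Ctla4, a T cell checkpoint receptor, Mzb1, a plasma cell chaperone, and Igl, an antibody light chain, also held, with 0.319 CPM or less in both iKO vehicle libraries and 9.14 to 94.1 CPM in WT vehicle. A pair of ribosomal protein pseudogenes ranked with them, Rps2-ps10 at 1.23 and 0.861 CPM in iKO vehicle, against 169 and 145 CPM in WT vehicle. Rps18-ps5 was at 0.466 and 0.258 CPM in iKO vehicle, against 62.1 and 47.8 CPM in WT vehicle. Reads of both may belong to the parent genes.

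By cell type, 26 of 36 T cell genes (72.2%), 14 of 25 plasma cell and B cell genes (56%) and 23 of 31 macrophage genes (74.2%) were lower. The share over all genes tested was 9.33%. Of these calls 4, 6 and 5 held. Leaving out WT vehicle library 1 left 5 T cell and 6 plasma and B cell genes, and leaving out iKO vehicle library 2 left 6 macrophage genes. Ptprc, the leukocyte antigen CD45, was at 5.07 and 3.30 CPM in iKO vehicle, against 72.8 and 57.5 CPM in WT vehicle (-3.96 ± 0.39, adjusted p = 9.79e-04). Cd14, the co-receptor for bacterial lipopolysaccharide on macrophages, was at 4.34 and 2.67 CPM in iKO vehicle, against 30.2 and 33.6 CPM in WT vehicle (-3.18 ± 0.33, adjusted p = 0.00111). Mertk, a receptor for dead cells, was at 10.5 and 11.9 CPM in iKO vehicle, against 60.7 and 39.6 CPM in WT vehicle (-2.16 ± 0.30, adjusted p = 0.00375). Trem2, a lipid receptor of macrophages, Pax5, a transcription factor of B cells, and Il2rb, an interleukin receptor chain of T and NK cells, fell, with differences of -3.79 ± 0.55 (adjusted p = 0.00431), -3.62 ± 0.46 (0.00271) and -4.30 ± 0.52 (0.00219). Csf1r, the macrophage growth factor receptor chosen after its values were seen, fell less, to 21.6 and 21.2 CPM in iKO vehicle, against 58.2 and 43.5 CPM in WT vehicle (-1.25 ± 0.35, adjusted p = 0.0421). Its call was lost without any one of the vehicle or iKO CFA libraries (adjusted p up to 0.279). Granulocyte and mast cell genes did not follow: 1 of 28 was lower and 23 had a positive difference. In the CFA pair the list medians were positive, at 2.22 (T cell), 1.75 (plasma and B cell), 0.5 (macrophage) and 2.91 (granulocyte and mast cell). There 8, 5, 2 and 8 members were called higher in iKO and 0 lower, against 1.5% and 0.208% of all genes tested.

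Signals between immune cells were lower as well, and the counts compare with 9.33% of all genes tested. In the CFA pair the list medians were positive, at 0.796 (interferon), 0.804 (MHC), 1.28 (chemokine), 0.777 (cytokine) and 0.845 (complement). Of 56 interferon response genes 27 were lower, 5 of which held, with Gbp4, a guanylate-binding protein, at 3.01 and 1.23 CPM in iKO vehicle, against 91.5 and 54.9 CPM in WT vehicle (-5.09 ± 0.48, adjusted p = 8.41e-04). Its relatives Gbp7, Gbp8 and Gbp9, whose similar sequences can share reads, and Irf8, a transcription factor of macrophages and B cells, fell, with differences of -2.05 ± 0.28, -4.36 ± 0.53, -3.28 ± 0.43 and -3.0 ± 0.43 and adjusted p between 0.00219 and 0.00405. Of 29 MHC genes 16 were lower, 3 of which held, with Nlrc5, the activator of class I genes, at 5.34 and 2.30 CPM in iKO vehicle, against 49.1 and 36.8 CPM in WT vehicle (-3.48 ± 0.43, adjusted p = 0.00235). Of 42 chemokines and receptors 18 were lower, 3 of which held, with the monocyte attractant Ccl7 at -4.12 ± 0.56 (adjusted p = 0.00353). Of 45 cytokines and prostaglandin mediators 12 were lower and 3 higher. Il1b, the fever cytokine interleukin 1 beta, was at 0.172 and 0.431 CPM in iKO vehicle, against 13.1 and 8.88 CPM in WT vehicle (-5.19 ± 0.50, adjusted p = 9.05e-04). Il10ra, an interleukin 10 receptor chain, Ptx3, a soluble pattern receptor, and Ltb, lymphotoxin beta, fell, with differences of -2.51 ± 0.23, -4.28 ± 0.42 and -4.47 ± 0.56 and adjusted p between 7.62e-04 and 0.00247. Of 24 complement genes 12 were lower and 2 higher, with C3, the central component, at 16.3 and 5.05 CPM in iKO vehicle, against 167 and 110.1 CPM in WT vehicle (-3.69 ± 0.51, adjusted p = 0.0038). Cfb, its alternative-pathway partner, was at 5.71 and 5.45 CPM in iKO vehicle, against 33.7 and 34.7 CPM in WT vehicle (-2.61 ± 0.20, adjusted p = 3.32e-04). Without WT vehicle library 1 the lower members were 8 of the interferon list, 3 of the MHC list and 3 of the chemokine list, and without iKO vehicle library 2 they were 4 of the cytokine list and 2 of the complement list. The 2 iKO vehicle libraries themselves differed here, with the interferon list at 1593 and 894.4 CPM in sum.

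The windows of the lower interferon genes were searched for the interferon-stimulated response element, GAAA followed 2 bases on by another GAAA, on either strand. Of 18 windows of 15 genes 44.4% held it, against 3.44% of all windows. Here too, list members that were not lower were not counted apart, so the share cannot be tied to the lower calls. The window of Gbp7 (chr3:142530086-142530385, + strand) is shown because it held the element in a gene whose call held, with the element in capitals at 53 bases before the start.
Gbp7: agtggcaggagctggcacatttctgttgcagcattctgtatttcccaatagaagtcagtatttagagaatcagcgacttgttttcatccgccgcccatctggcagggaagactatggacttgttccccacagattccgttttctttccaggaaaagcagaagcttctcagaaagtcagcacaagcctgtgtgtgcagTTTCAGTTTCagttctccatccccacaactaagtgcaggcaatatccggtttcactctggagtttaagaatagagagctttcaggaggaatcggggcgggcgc
A heat shock element, GAANNTTC, was found in 2 of 4 windows of lower chaperone genes and in 7.86% of all windows. A set of 4 windows is too small to compare with that share.

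**Figure D4:**
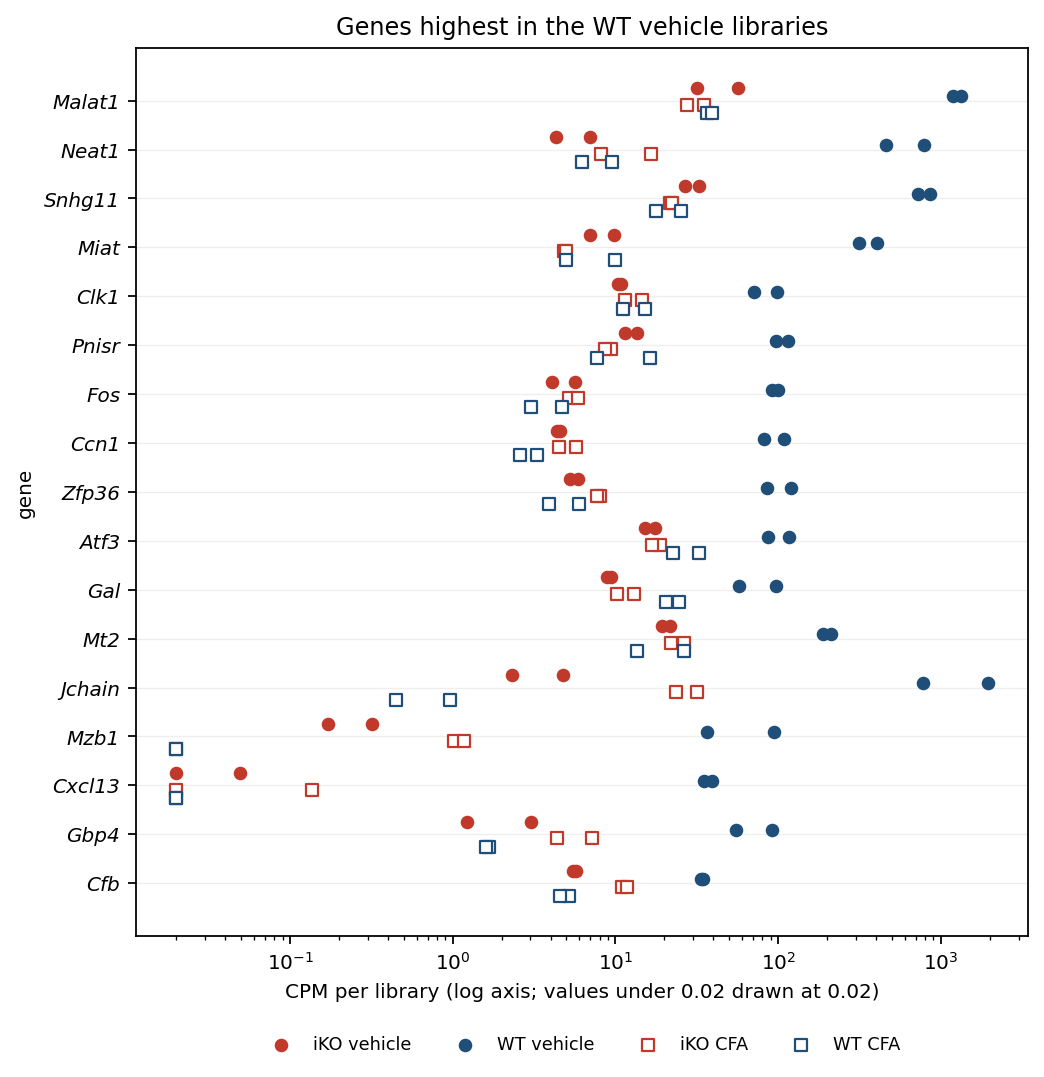
Level of 17 nuclear, immediate early, injury and immune genes in CPM on a log axis, 1 symbol per library, with iKO in red and WT in blue, filled for vehicle and open for CFA, and values under 0.02 CPM drawn at 0.02. Both WT vehicle libraries lie above all 6 others for each gene plotted, for example Fos at 5.87 CPM or less in all iKO and CFA libraries, against 91.9 and 99.1 CPM in WT vehicle.

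Calls were also found among genes of glia, connective tissue and vessels. The lower shares of the matrix and endothelial lists below were 22.7% and 44.4%, against 9.33% of all genes tested. Of 25 myelinating Schwann cell genes 3 were lower (12%), near the share of all genes. This list summed to 7940 and 9094 CPM in iKO vehicle, against 14880 and 8594 CPM in WT vehicle, so that WT vehicle library 2 lay between the iKO libraries. Gfap, an intermediate filament of activated glia, was at 1.59 and 1.18 CPM in iKO vehicle, against 31.2 and 27.3 CPM in WT vehicle (-4.39 ± 0.36, adjusted p = 5.31e-04), and at 2.24 to 4.31 CPM in the CFA libraries. Of 25 satellite glia genes 5 were higher (20%, against 8.28% of all genes) and 2 lower (8%), and their median of 0.23 turned to -0.0088 with library totals. Of 44 fibroblast and matrix genes 10 were lower, with the collagen gene Col5a2 (-2.02 ± 0.25, adjusted p = 0.00259) and Thbs1, a matrix glycoprotein of wounds (-2.41 ± 0.31, adjusted p = 0.00271), as the calls that held. Of 27 endothelial genes 12 were lower, with Vcam1, the adhesion molecule for leukocytes, at 11.2 and 12.3 CPM in iKO vehicle, against 72.1 and 53.2 CPM in WT vehicle (-2.41 ± 0.25, adjusted p = 0.00112). Without iKO vehicle library 1 the matrix list had 2 lower members, and without iKO vehicle library 2 the endothelial list had 2. Thbs1 and Vcam1 went the other way in the CFA pair, higher in iKO by 2.08 (adjusted p = 0.0146) and 1.37 (0.0315). Of 19 skeletal muscle genes 9 were lower (median -5.17). Without WT vehicle library 1 edgeR called 0 lower, 1 had an unadjusted p under 0.05 and the median was -0.268, while DESeq2 on all libraries called 12. Ttn, the giant sarcomere protein, was at 0.392 and 0.258 CPM in iKO vehicle, against 26.7 and 1.79 CPM in WT vehicle (-5.42 ± 1.14, adjusted p = 0.0161). This call was lost without either iKO vehicle library or WT vehicle library 1 (adjusted p up to 0.281).

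Whether the genotype difference itself changed with treatment was tested as an interaction, the iKO minus WT difference under CFA minus that under vehicle. It passed for 1895 genes (9.36%), 1253 with a positive (6.19%) and 642 with a negative value (3.17%). Leaving out 1 library gave between 228 (without WT vehicle library 1) and 8303 (without WT CFA library 2). The smallest interaction p among vehicle calls belonged to Rnps1-ps, a pseudogene of a splicing activator, at 32.9 and 30.1 CPM in iKO vehicle, against 19 and 20.7 CPM in WT vehicle, but 26.4 and 31.5 CPM in iKO CFA and 0.347 and 0.308 CPM in WT CFA (interaction 5.78, adjusted p = 5.59e-04). Jchain, Ccn1, Cfb and Snhg11 followed, with positive interactions of 13.84, 5.22, 3.83 and 4.76 (adjusted p between 8.38e-04 and 0.00108). Serpinb5, Tph2, Cst12, Il1f9, Otol1 and Dach2 did not pass (adjusted p between 0.185 and 0.767), which does not show that their differences were equal under both treatments.

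**Figure D5:**
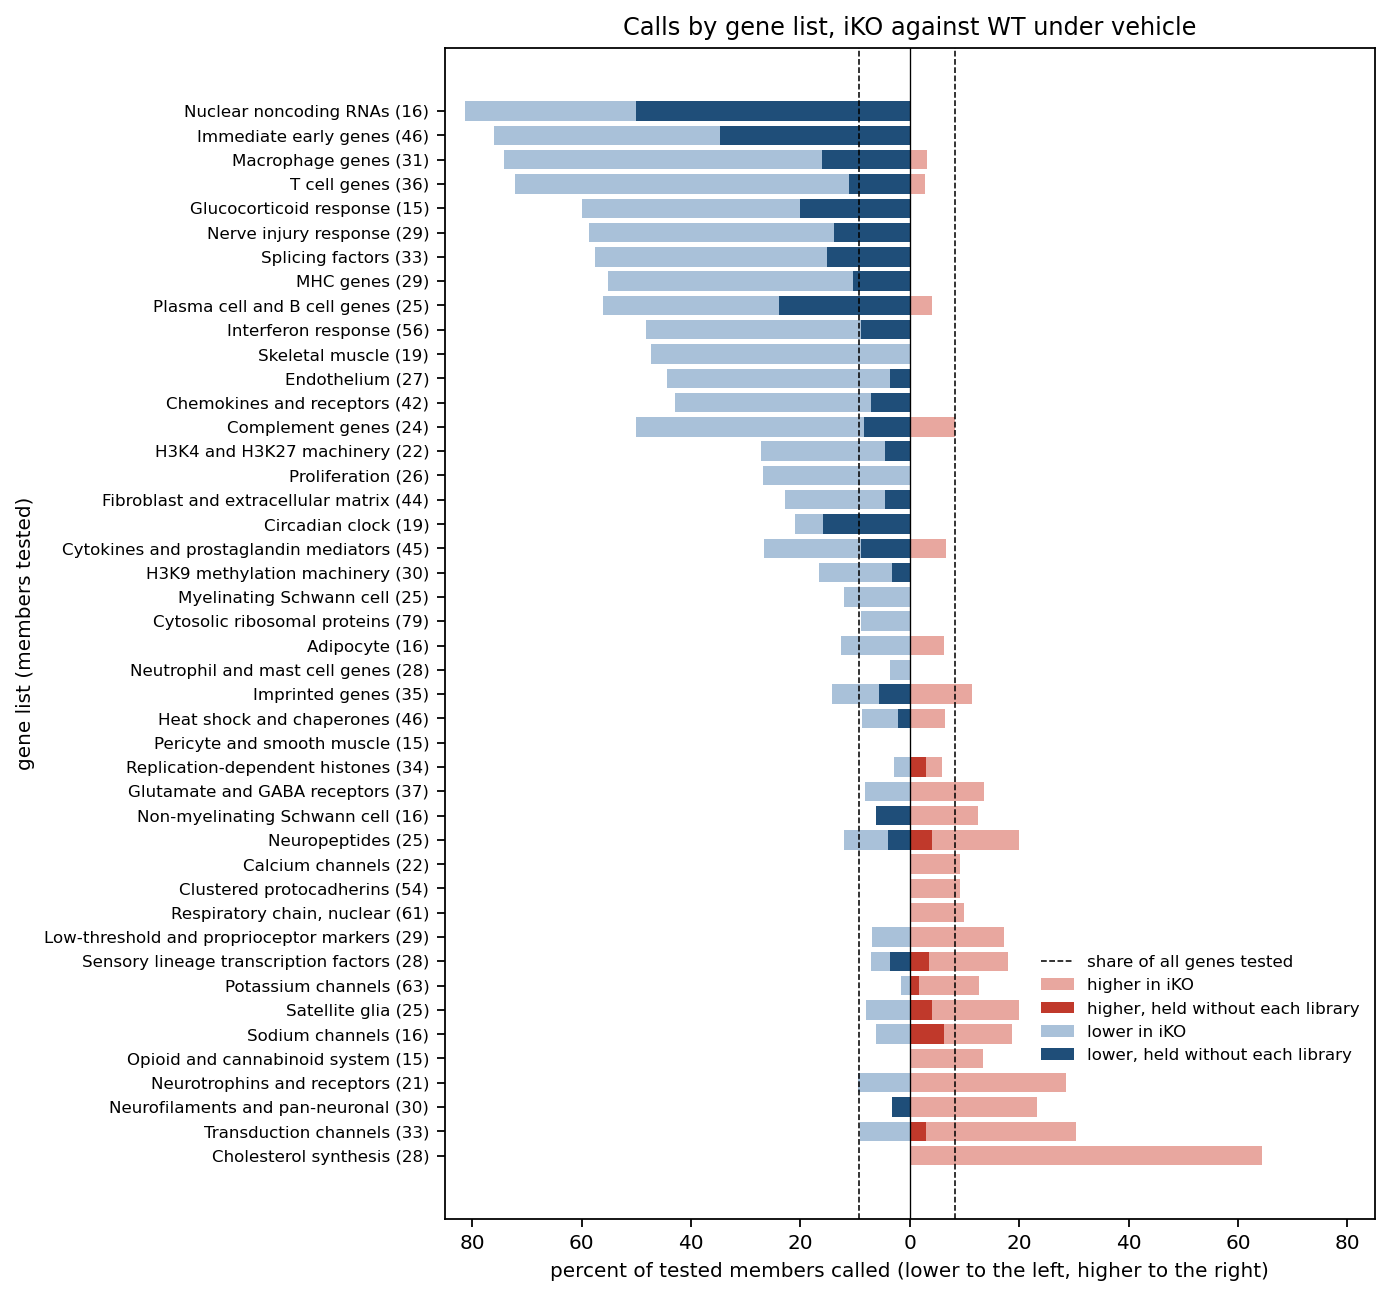
Share of the tested members of each list, in percent, called lower (to the left) and higher (to the right) in iKO than in WT under vehicle, with the darker part for calls that held without each library in turn and dashed lines at the 9.33% and 8.28% of all genes. Lists of 15 or more tested members are shown, from nuclear noncoding RNAs with 13 of 16 lower to cholesterol synthesis with 18 of 28 higher.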

How the data were processed

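RNA was sequenced from whole dorsal root ganglia of 8 libraries in 4 groups of 2. Per the submitters' processing notes, the tools named are HISAT2 2.2.1, SAMtools 1.19.2, featureCounts 2.0.6 and DESeq2, with mouse build GRCm39. The annotation and the strand setting are not given in the sources used here, so overlapping and antisense genes cannot be told apart. The deposited values are raw counts of reads per gene, per library, for 25780 genes.

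From these counts, CPM was computed with TMM scaling, and edgeR 4.0.16 in R 4.3.3 fitted a quasi-likelihood model to all 8 libraries after filterByExpr, and 20235 genes remained, with 99.937% or more of the reads of each library. P-values were adjusted by Benjamini-Hochberg over all of these, with a threshold of 0.05. Alternatives were DESeq2 1.42.0, other scalings and filters, the vehicle libraries alone, a replicate block and each library left out. The fit was tested on simulated data.

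Genes were named by rule: Ehmt2, Trpa1 and Trpv1, the largest rises and falls that held at a log2 mean CPM over the 4 vehicle libraries of at least 1, those called alike under both treatments, the most abundant, up to 5 of each of 52 lists, and those with the smallest interaction p. Unnamed gene models were only counted, and some genes that the rule names are not reported here. Members and lists were chosen with earlier results of these data known. Ratios for genes with under 4 reads carry 95% counting intervals, or a floor of 3 reads at 0, which cover counting error only. Promoter windows come from RefSeq on GRCm38.p6, matched by symbol.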

Additional observations from a re-analysis of the deposited data

Results flagged for a closer look

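By the edgeR interaction test with adjusted p under 0.05, the genotype difference differed between the treatments for 91 of the 134 genes named. The share over all genes tested was 9.36%. Genes were named largely for their vehicle difference, which is part of the interaction, and some for their interaction p. A high count among them follows from that choice and is no result about them. The values below are the iKO minus WT difference under CFA minus that under vehicle on the log2 scale. A positive value means that iKO stood higher relative to WT under CFA than under vehicle. All 8 libraries enter this test, so it rests on the WT CFA libraries as much as on the vehicle libraries.

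Among nuclear RNAs and splicing genes the value was 4.55 for Malat1, 5.92 for Meg3, 4.76 for Snhg11, 7.44 for Neat1, 5.06 for Rtl1 and 4.82 for Miat. It was 2.98 for Clk1, 2.38 for Clk4, 1.97 for Nktr, 2.67 for Pnisr and 1.54 for Luc7l3. Immediate early, injury, hormone and clock genes gave 3.37 for Socs3, 1.99 for Atf3, 5.22 for Ccn1, 4.81 for Fos, 4.89 for Zfp36, 2.61 for Fosl2 and 2.14 for Gal. Further values were 3.95 for Per3, 1.67 for Bhlhe40, 1.35 for Per1, 3.57 for Mt2, 2.57 for Mt1, 2.76 for Creld2, 1.48 for Jmjd1c and 1.90 for Kdm6b.

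The widest values belonged to immune genes, with 11.88 for Ubd, 16.33 for Icos, 17.75 for Cd69, 14.64 for Cxcl13 and 13.84 for Jchain. Among them were also 14.04 for Lax1, 12.61 for Ctla4, 16.26 for Mzb1, 14.51 for Igl and 9.63 for Osm. Since many of these genes have libraries at 0, their fitted sizes are set in part by the prior count and bound nothing. Values of other immune genes were 5.88 for Ptprc, 3.31 for Cd14, 2.47 for Mertk, 3.51 for Trem2, 4.54 for Pax5, 6.21 for Il2rb and 5.53 for Ccl7. They were 2.68 for Il10ra, 6.88 for Il1b, 5.06 for Ptx3, 7.07 for Ltb, 6.91 for Gbp4, 7.44 for Gbp8, 4.33 for Gbp9, 2.58 for Gbp7, 4.40 for Irf8, 4.34 for Nlrc5, 3.83 for Cfb and 5.92 for C3. Genes of glia, matrix, vessels and general structure gave 4.02 for Gfap, 2.18 for Col5a2, 4.49 for Thbs1, 3.79 for Vcam1, 2.27 for Ahnak, 1.24 for Scg5 and 1.95 for Mrgprb5.

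Negative values, with iKO lower relative to WT under CFA, belonged mostly to neuronal and metabolic genes: -1.56 for Trpa1, -1.15 for Trpv1, -1.57 for Asic3, -1.45 for Scn9a, -1.33 for Tubb3, -1.66 for Kcns1, -1.67 for Cacng5, -2.62 for Grin1, -1.5 for Oprl1, -1.45 for Mrgprx1, -1.34 for Mrgpre, -1.51 for Tlx2, -1.82 for Pcsk1n and -1.61 for Aplp1. They were -2.27 for Eno1, -1.58 for Emc10, -1.42 for Aldoc, -1.70 for Dhcr7, -1.58 for Sqle, -1.64 for Marchf9 and -1.28 for Kcnmb1 as well. Of the genes higher in iKO from near silence in WT, the value was -2.94 for Magea13, -2.09 for Rnf39 and 1.97 for Gad1, and among genes lower in both pairs it was -1.44 for Wdfy1. Pseudogenes, whose reads may come from their parents, gave 8.28 for Rps2-ps10, 6.81 for Rps18-ps5, 5.78 for Rnps1-ps and 5.08 for Glo1-ps.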

How the results depend on the processing

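Direction was kept by all 134 named genes under every alternative run. Vehicle calls were 1676 higher and 1888 lower, against 770 higher with library totals, 3762 and 4417 in a fit of the vehicle libraries alone and 4038 and 4265 without both WT CFA libraries, an alternative chosen after seeing the data. Leaving out 1 library gave 97 to 4617 higher and 297 to 3854 lower calls. DESeq2 gave 2209 and 2803, and edgeR without its legacy estimate 2017 and 2593. Under CFA the higher calls, 303, were 849 with DESeq2, 470 without the legacy estimate and 65 to 2474 leaving out 1 library, and the lower calls, 42, were 66 with no filter on low counts, 320 with DESeq2, 72 without the legacy estimate and 7 to 3345 leaving out 1 library. Interaction calls, 1895, were 3901 with DESeq2 and 228 to 8303 leaving out 1 library. The Ehmt2 difference lay between -1.20 and -1.01 leaving out 1 library. The causes of these shifts were not tested.

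Of the 134 named genes 4 lost their call with RLE scaling, 7 with library totals, 9 with the replicate block and up to 31 without a single library, the most without WT vehicle library 1. The replicate numbers share only a number: same-numbered libraries deviated from their group means with correlations between -0.144 and 0.027. With the replicate block the calls were 1128 higher and 1419 lower under vehicle, 185 higher and 22 lower under CFA and 1062 for the interaction, and Ehmt2 was at -1.09 (adjusted p = 0.0118). With 2 libraries per group and WT vehicle the shallowest at 26312614 and 29763833 reads, genes with few reads are the least certain.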
